A study of Homo sapiens with 12 samples.

Results

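The HOX cluster genes were examined in 4 human lymphoma cell lines, as all genes with 1 symbol per probe set whose symbol is HOXA, HOXB, HOXC or HOXD followed by a number. This left 27 of the 39 HOX genes in RefSeq, among 18417 named genes in all. The 27 were 1 of 11 HOXA genes (HOXA2), all 10 HOXB genes, 7 of 9 HOXC genes and all 9 HOXD genes. The other 10 HOXA genes were not analysed here, nor were HOXC4 and HOXC6, which share a probe set that carries both symbols. The HOXA cluster lies on chromosome 7, HOXB on chromosome 17, HOXC on chromosome 12 and HOXD on chromosome 2.

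The established lines SUDHL-1, DEL, Karpas299 and SUPM2 stem from anaplastic large cell lymphoma (ALCL, a cancer of T cells) in which the NPM1 gene is fused to the kinase gene ALK. From each line in exponential growth, flow cytometry separated the side population (SP), whose cells expel the DNA dye Hoechst, from the main population (MP), whose cells hold it. SUDHL-1 had 3 SP and 3 MP arrays, and DEL, Karpas299 and SUPM2 had 1 SP and 1 MP array each, 12 arrays in all. Every group was stained with the dye, and no group received another agent. The series title concerns lymphoma stem cells, and the values are log2 signals of sorted bulk cells, in which fewer cells with an RNA and less RNA per cell cannot be told apart.

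HOX genes encode homeodomain transcription factors that give cells their position along the body axis, and within a cluster the low numbers act at the front of the embryo and the high numbers at the rear. Genes of the same number in different clusters are paralogues and often act alike. In blood, HOXA and HOXB genes such as HOXB3 and HOXB4 are active in stem and progenitor cells and decline as cells mature, whereas most HOXD genes are little used. PBX and MEIS proteins bind DNA together with HOX proteins, trithorax proteins such as KMT2A keep the clusters active, and Polycomb proteins such as EZH2 keep them silent.

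The median signal of an array was 4.83 to 5.0 for SUDHL-1, against 5.24 to 5.35 for the other lines, so that array set and line cannot be told apart wherever SUDHL-1 is set against them. Over all genes, arrays correlated at 0.965 to 0.986 within SUDHL-1, at 0.963 to 0.982 between SP and MP of one other line, at 0.855 to 0.908 between SUDHL-1 and another line and at 0.923 to 0.952 between the other lines. Of the 8 ALCL and T cell markers measured, 5 (TNFRSF8, which encodes CD30, with GZMB, PRF1, IL2RA and CD7) exceeded background on 12 of 12 arrays, and CD3E did so on 0. Markers of other cell types exceeded background on 12 of 12 arrays in 0 of 4 B cell genes, 2 of 5 myeloid genes (CSF1R and SPI1), 1 of 6 stromal genes (COL1A1) and 1 of 5 epithelial genes (KRT18). On 0 arrays stood 1 B cell gene (MS4A1), 1 myeloid gene (MPO), 1 stromal gene (LUM) and 2 epithelial genes (EPCAM and CDH1), and the part of such cells in the HOX values was not tested. Sorting was done in triplicate and separate cultures are not mentioned, so the spread behind each p-value is that between these arrays and may be technical.

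Because no detection p-value was at hand, each array's background was taken as the 95th percentile of 361 olfactory receptor genes, which lymphoma cells are not known to use. That threshold was 4.38 to 4.68 in SUDHL-1, against 4.91 to 5.20 in the other lines. In SUDHL-1, 13 of 27 HOX genes exceeded it on every array, against 58.3% of all genes. The count was 13 in DEL (61.8% of all genes), 11 in Karpas299 (60.3%) and 13 in SUPM2 (58.5%). On all 12 arrays, 10 of 27 HOX genes exceeded the threshold, against 51.0% of all genes, and 8 of 27 did so on 0 arrays, against 25.4% of all genes. The 10 were HOXB1, HOXB3, HOXB4, HOXB7, HOXB9, HOXC10, HOXD1, HOXD4, HOXD9 and HOXD13. The 8 were HOXB2, HOXB5, HOXB6, HOXC5, HOXD3, HOXD10, HOXD11 and HOXD12.

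Signal above this threshold does not by itself show that a HOX gene was expressed, since probe sets differ in how brightly they read. The ParaHox genes, which descend from the same ancestral cluster and mark gut or nervous tissue, gave a measure of this. CDX1, CDX2, GSX1, GSX2 and PDX1 were above the threshold on 12 of 12 arrays, and CDX4 on 0. GSX2, a forebrain gene, read 6.38 to 7.06, and GSX1 read 5.60 to 7.22.

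**Figure D1:**
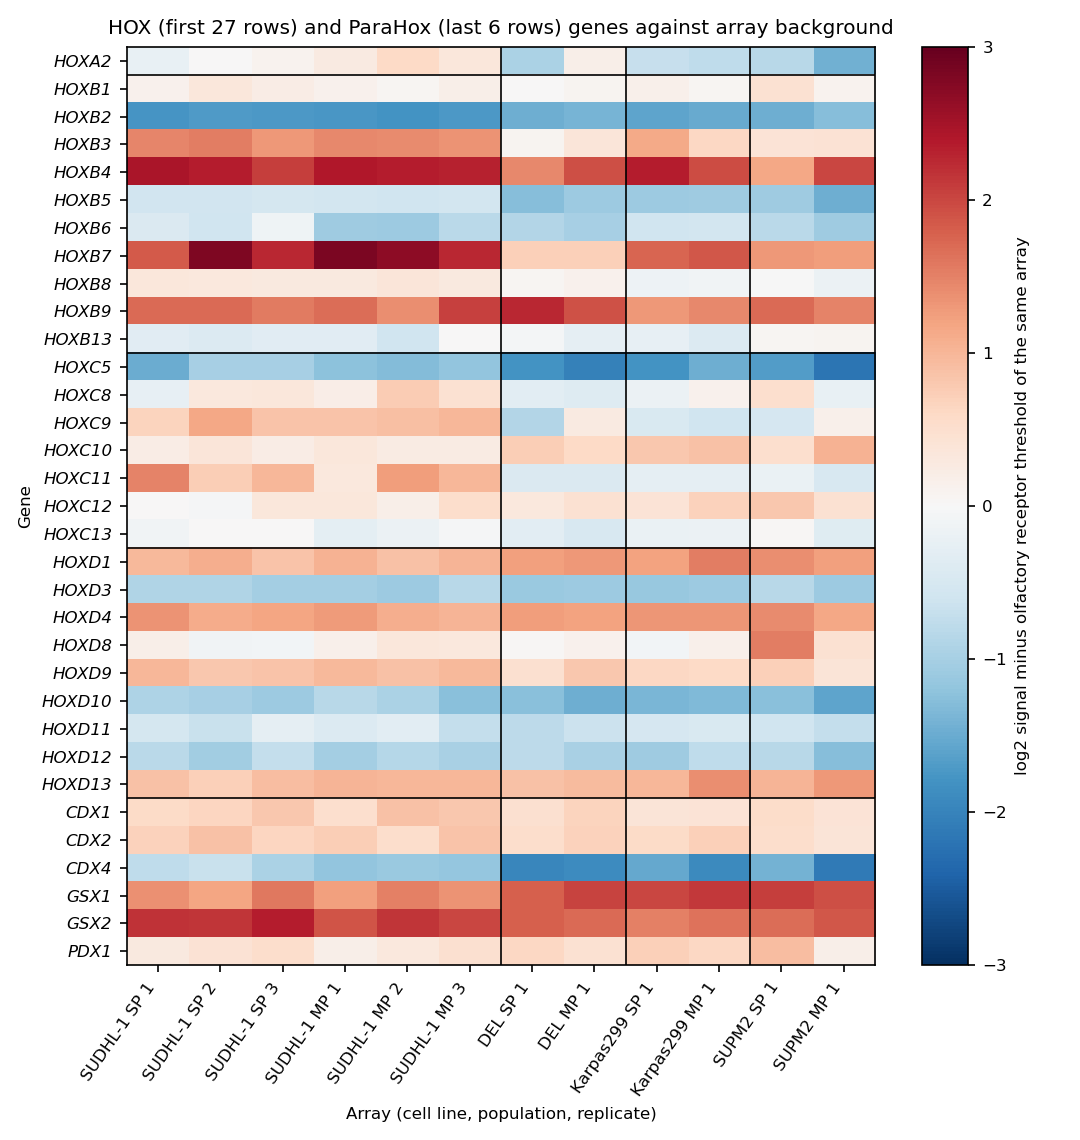
Log2 signal of 27 HOX genes and, at the bottom, 6 ParaHox genes on each of the 12 arrays (columns), minus the olfactory receptor threshold of the same array (red above, blue below). On all 12 arrays, 10 HOX and 5 ParaHox genes are above the threshold, among them HOXB4, HOXB7, HOXB9, GSX1 and GSX2, and 8 HOX genes are below it.

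Among the front genes of the HOXB cluster, HOXB4, which expands blood stem cells when overexpressed, exceeded background on all 12 arrays. It read 7.02, 6.78 and 6.73 in SUDHL-1 SP and 6.91, 7.03 and 6.69 in SUDHL-1 MP. Its SP and MP signals were 6.51 and 6.83 in DEL, 7.46 and 6.98 in Karpas299, and 6.32 and 7.21 in SUPM2. The lines overlapped, and the SP and MP arrays lay farther apart in SUPM2 than in any other line. HOXB3, its neighbour, which has overlapping roles in blood progenitors, read 6.03, 5.96 and 5.94 in SUDHL-1 SP and 5.95, 6.10 and 5.73 in SUDHL-1 MP. It read 5.16 and 5.28 in DEL SP and MP, 6.22 and 5.64 in Karpas299, and 5.57 and 5.63 in SUPM2. Both DEL arrays were the lowest of the 12 for HOXB3.

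HOXB1, which patterns the hindbrain, lay just above background on every array. HOXB1 read 4.69, 4.76 and 4.87 in SUDHL-1 SP and 4.64, 4.74 and 4.56 in SUDHL-1 MP. The SP and MP arrays gave 5.09 and 4.99 in DEL, 5.24 and 5.08 in Karpas299, and 5.60 and 5.31 in SUPM2. All SUDHL-1 values lay below the others, as did their threshold. HOXB2, its neighbour with a like role, read 2.66 to 2.92 in SUDHL-1, against 3.51 to 3.92 in the other lines, and was below background throughout. HOXB5 was below background on all 12 arrays, with its highest value at 4.11.

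HOXB7, a trunk gene often overexpressed in carcinomas, had the widest range of means over DEL, Karpas299 and SUPM2. It read 6.42, 7.22 and 6.90 in SUDHL-1 SP and 7.33, 7.36 and 6.64 in SUDHL-1 MP. It read 5.78 and 5.62 in DEL SP and MP, 6.84 and 6.88 in Karpas299, and 6.46 and 6.45 in SUPM2. Both DEL arrays lay below the other 10. HOXB9, which shapes the rib cage, ran the other way in DEL, with 7.32 and 6.83 there. Its values were 6.07 to 6.43 in SUDHL-1, 6.39 and 6.46 in Karpas299 SP and MP, and 6.84 and 6.69 in SUPM2. HOXB8, which blocks maturation of myeloid progenitors when forced on, stayed at the threshold, at 4.68 to 5.03 in SUDHL-1, 5.03 and 5.13 in DEL, and 4.91 to 5.13 in Karpas299 and SUPM2. HOXB13, a marker of prostate epithelium, passed on every array of a line in SUPM2 alone, and narrowly. The SUPM2 thresholds were 5.15 on the SP and 5.20 on the MP array, and 1 SUDHL-1 array also passed. HOXB13 read 4.23, 4.01 and 4.31 in SUDHL-1 SP and 4.18, 4.07 and 4.39 in SUDHL-1 MP. On SP and MP arrays it was 5.02 and 4.63 in DEL, 4.84 and 4.61 in Karpas299, and 5.20 and 5.29 in SUPM2.

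In the HOXC cluster, only HOXC10, which acts in the lumbar spinal cord and hind limb, passed on all 12 arrays. HOXC10 read 4.80, 4.80 and 4.87 in SUDHL-1 SP and 4.85, 4.93 and 4.63 in SUDHL-1 MP. In SP and MP cells it read 5.80 and 5.51 in DEL, 5.90 and 5.90 in Karpas299, and 5.66 and 6.24 in SUPM2. The SUDHL-1 arrays lay below all others. HOXC11, its rear neighbour, passed on 6 of 6 SUDHL-1 arrays and on 0 of 6 arrays of the other lines. It read 6.05, 5.16 and 5.64 in SUDHL-1 SP and 4.84, 5.92 and 5.37 in SUDHL-1 MP, against 4.48 to 4.96 in the other lines. The spread within SUDHL-1 was wide, and its lowest array lay inside the range of the others. HOXC9, which sets thoracic motor neurons apart, passed in SUDHL-1, at 5.24, 5.58 and 5.50 in SP and 5.36, 5.59 and 5.37 in MP. HOXC9 read 4.18 and 5.18 in DEL SP and MP, 4.65 and 4.43 in Karpas299, and 4.64 and 5.36 in SUPM2, so that only the SUPM2 MP array reached the SUDHL-1 range. HOXC12, which acts at the rear of the body axis, ran lower in SUDHL-1, where its values did not reach those of the other lines. HOXC12 read 4.57, 4.39 and 4.98 in SUDHL-1 SP and 4.86, 4.85 and 4.92 in SUDHL-1 MP. Its SP and MP signals were 5.37 and 5.37 in DEL, 5.50 and 5.70 in Karpas299, and 5.95 and 5.65 in SUPM2. It passed on 5 of 6 SUDHL-1 arrays and on all arrays of the other lines. HOXC13, which controls hair keratins, read 4.22 to 5.18 and passed on 3 arrays, HOXC8 on 7 and HOXC5 on 0. HOXA2, the 1 HOXA gene measured, which patterns the pharyngeal arches, read 3.75 to 5.27 and passed on 6 arrays, of which 5 were SUDHL-1 arrays.

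In the HOXD cluster, a gene above background stood next to one below it. HOXD1, HOXD4, HOXD9 and HOXD13 passed on 12 arrays, whereas HOXD3, HOXD10, HOXD11 and HOXD12 passed on 0. HOXD1, which acts in sensory neurons of the mouse, stood lowest in SUDHL-1 with a narrow spread there. HOXD1 read 5.53, 5.51 and 5.49 in SUDHL-1 SP and 5.55, 5.54 and 5.41 in SUDHL-1 MP. The SP and MP arrays gave 6.31 and 6.21 in DEL, 6.30 and 6.55 in Karpas299, and 6.55 and 6.42 in SUPM2. HOXD4, which patterns the hindbrain and neck, showed the same order. HOXD4 read 5.90, 5.53 and 5.83 in SUDHL-1 SP and 5.78, 5.77 and 5.40 in SUDHL-1 MP. On SP and MP arrays it was 6.32 and 6.13 in DEL, 6.43 and 6.34 in Karpas299, and 6.56 and 6.35 in SUPM2. HOXD13, the digit gene at the rear end of the cluster, was likewise lower on every SUDHL-1 array than on any other. HOXD13 read 5.44, 5.13 and 5.57 in SUDHL-1 SP and 5.53, 5.67 and 5.37 in SUDHL-1 MP. In SP and MP cells it read 5.94 and 5.86 in DEL, 6.10 and 6.40 in Karpas299, and 6.18 and 6.51 in SUPM2. HOXD9, a limb gene, overlapped between SUDHL-1 and the other lines. HOXD9 read 5.56, 5.23 and 5.51 in SUDHL-1 SP and 5.49, 5.56 and 5.37 in SUDHL-1 MP. Its SP and MP signals were 5.55 and 5.71 in DEL, 5.73 and 5.63 in Karpas299, and 5.87 and 5.58 in SUPM2.

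HOXD8, a trunk gene, read 4.75, 4.31 and 4.57 in SUDHL-1 SP and 4.68, 5.01 and 4.70 in SUDHL-1 MP. It read 5.11 and 5.04 in DEL SP and MP, 5.01 and 5.18 in Karpas299, and 6.68 and 5.66 in SUPM2. Both SUPM2 arrays lay above the other 10, the SP array by more than the MP array.

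Promoters of 3 HOXD genes are printed because the 3 differ in signal: HOXD8 had the widest line difference of the cluster, HOXD4 passed on 12 arrays and HOXD10 on 0. They were chosen after the values were seen and come from RefSeq (GRCh38.p14, 250 bases before to 50 after the start of the gene), which held a promoter for 11 of the 27 HOX genes. HOXD8 lies at chr2:176129455-176129754, HOXD4 at chr2:176151300-176151599 and HOXD10 at chr2:176116528-176116827, all on the plus strand. Capitals mark TAAT on either strand, the core that homeodomains bind.
HOXD8: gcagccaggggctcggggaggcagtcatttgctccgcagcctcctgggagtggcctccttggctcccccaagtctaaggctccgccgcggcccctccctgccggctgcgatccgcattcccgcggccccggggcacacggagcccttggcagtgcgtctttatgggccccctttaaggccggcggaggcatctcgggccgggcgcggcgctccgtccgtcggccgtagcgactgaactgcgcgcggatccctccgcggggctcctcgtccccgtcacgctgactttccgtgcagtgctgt
HOXD4: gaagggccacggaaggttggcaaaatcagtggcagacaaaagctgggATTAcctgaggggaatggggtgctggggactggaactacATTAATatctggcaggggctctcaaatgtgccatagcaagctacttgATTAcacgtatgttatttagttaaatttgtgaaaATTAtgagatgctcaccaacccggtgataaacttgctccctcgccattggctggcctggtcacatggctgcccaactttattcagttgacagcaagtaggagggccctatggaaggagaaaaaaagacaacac
HOXD10: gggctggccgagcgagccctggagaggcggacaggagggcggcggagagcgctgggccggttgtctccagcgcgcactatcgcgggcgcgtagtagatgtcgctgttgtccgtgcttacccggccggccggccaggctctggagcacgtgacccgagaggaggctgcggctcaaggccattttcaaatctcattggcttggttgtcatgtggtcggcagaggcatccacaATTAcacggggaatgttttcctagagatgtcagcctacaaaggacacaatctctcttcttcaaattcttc
The HOXD8 promoter held 34 CpG, 71.7% G or C and 0 TAAT. The HOXD4 promoter held 4 CpG, 47.3% G or C and 5 TAAT, of which an adjoining pair overlaps. The HOXD10 promoter held 23 CpG, 60% G or C and 1 TAAT. TAAT occurred in 9 of the 11 HOX promoters and in 50.2% of all 35116 promoters of this length. TGATNNAT, a form of the site that PBX and HOX proteins bind together, occurred in 3 of 11 and in 7.40%, on either strand. A match describes the letters and shows no binding.

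HOXB7 alone among the HOX genes separated DEL from Karpas299, and no HOX gene separated either from SUPM2 at the adjusted threshold. With limma over the 6 arrays of these lines, 1 of 27 HOX genes passed an adjusted p of 0.05 in DEL against Karpas299, where 2.41% of all genes passed. In DEL against SUPM2, 0 of 27 passed (4.72% of all genes), and in Karpas299 against SUPM2, 0 of 27 (6.81% of all genes). At an unadjusted p under 0.05 in limma the counts were 3, 3 and 2 of 27, against 15.6%, 20.5% and 22.0% of all genes. The residual of this fit is the disagreement of SP and MP arrays between lines, not of cultures. The range between the 3 line means had a median of 0.41 over the HOX genes and 0.42 over all genes, and it exceeded 1 for 2 of 27 HOX genes (HOXB7 and HOXD8) and for 17.6% of all genes.

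The gene that passed was HOXB7, lower in DEL than in Karpas299 (log2 difference -1.16, SE 0.18, limma adjusted p = 0.0455). It did not pass after the columns were quantile normalized again (adjusted p = 0.0527) or with a robust trended variance (adjusted p = 0.0536). Against SUPM2 the HOXB7 difference of DEL was -0.76 (limma adjusted p = 0.0900). HOXD8 differed by -1.09 in DEL against SUPM2 (SE 0.32, limma adjusted p = 0.142), with -1.56 between the SP arrays and -0.63 between the MP arrays. In Karpas299 against SUPM2 its difference was -1.07 (limma adjusted p = 0.130), with -1.67 between SP and -0.48 between MP arrays, and it passed when all 12 arrays shared the fit (adjusted p = 0.0478). In DEL against Karpas299, HOXB9 differed by 0.66 (SE 0.21, limma adjusted p = 0.222), with 0.94 between the SP and 0.37 between the MP arrays. HOXB3 differed by -0.71 (SE 0.24, limma adjusted p = 0.242), with -1.06 between the SP and -0.36 between the MP arrays. Karpas299 had a HOXB13 difference of -0.52 against SUPM2 (limma adjusted p = 0.220). HOXB13 was narrowly above background on both SUPM2 arrays and above it on 0 of 2 Karpas299 arrays. Of 6 stromal markers, 3 passed on both arrays of DEL, 2 on those of Karpas299 and 1 on those of SUPM2. The stromal mean was 4.61 and 5.06 on the DEL arrays, against 4.42 and 4.48 in Karpas299 and 4.39 and 4.59 in SUPM2. Among these lines DCN and LUM had their highest mean in DEL, whereas COL1A1, COL1A2, COL3A1 and PDGFRB had their lowest there. DCN read 4.39 and 6.03 in DEL SP and MP, with means of 2.99 in Karpas299 and 2.78 in SUPM2. Of the 12 arrays, DCN exceeded background on 1, that of DEL MP, and LUM on 0.

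**Figure D2:**
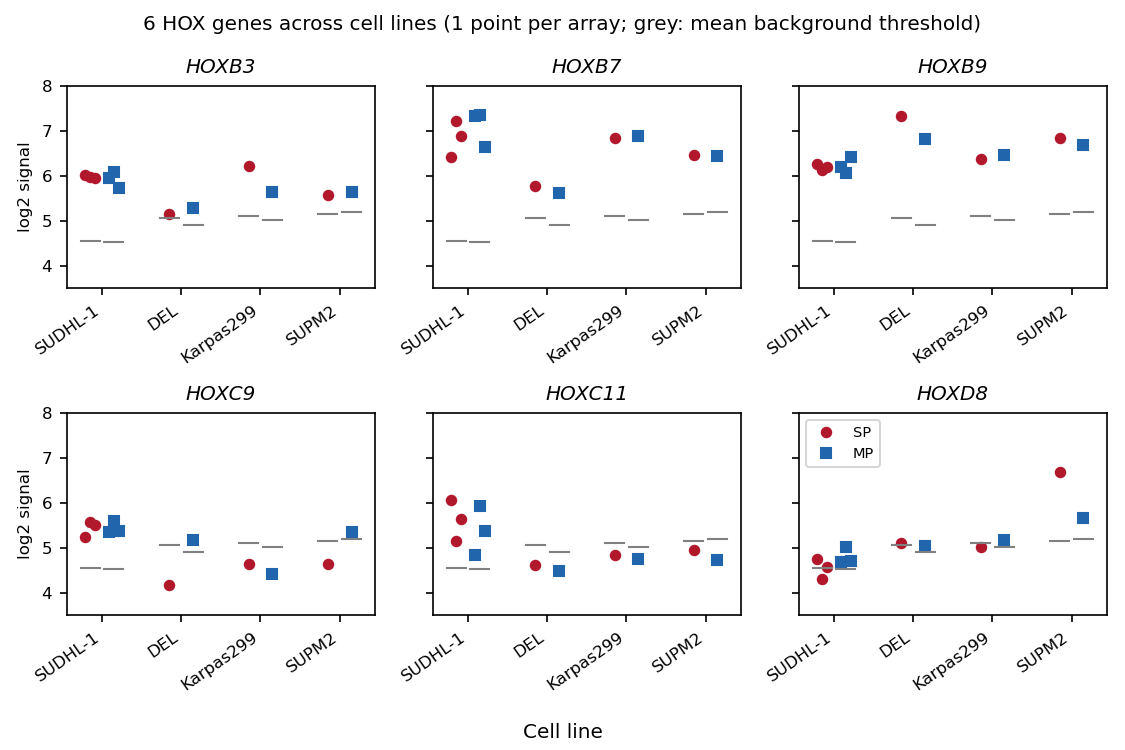
Log2 signal of 6 HOX genes on every array of the 4 lines (red circles SP, blue squares MP), with a grey line at the mean background threshold of each line and population. HOXB7 and HOXB3 are lowest in DEL, HOXC11 lies above the threshold in SUDHL-1 alone, and HOXD8 is highest in SUPM2.

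SUDHL-1 differed from the mean of the other 3 lines in 19 of 27 HOX genes (limma over 12 arrays, adjusted p under 0.05), against 65.6% of all genes. Of these, 4 were higher, against 16.4% of all genes, and 15 were lower, against 49.2%. The median difference was -0.40 over the HOX genes and -0.33 over all genes. After each array was centred on its median, 9 HOX genes were higher (34.6% of all genes) and 5 lower (19.6%), and after a second quantile normalization 8 were higher (26.0%) and 6 lower (25%). Higher genes thus made up 21.1% of the HOX calls as deposited, 64.3% when centred and 57.1% when quantile normalized, against 25%, 63.9% and 51.0% of the calls over all genes.

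HOXC11, HOXC9, HOXB7 and HOXB3 were higher in SUDHL-1 under all 3 scalings. HOXC11 averaged 5.50 in SUDHL-1 and 4.73 over the other lines (difference 0.77, SE 0.19, limma adjusted p = 0.00497). The other lines were below background on 6 of 6 arrays, and the SUDHL-1 mean of HOXC11 was 1.34-fold above their mean threshold (5.07). That ratio allows neither for the spread within SUDHL-1, where MP replicate 1 read 4.84, nor for the array set. HOXC9 averaged 5.44 in SUDHL-1 and 4.74 over the others (difference 0.70, SE 0.17, limma adjusted p = 0.00361), and 2 of the 6 arrays of the other lines were above background. HOXB7 averaged 6.98 against 6.34 (difference 0.64, SE 0.17, limma adjusted p = 0.00698) and HOXB3 5.95 against 5.58 (difference 0.37, SE 0.11, limma adjusted p = 0.0155). As deposited, the calls of the HOXB pair rested on DEL: without it the difference was 0.32 for HOXB7 (limma adjusted p = 0.180) and 0.19 for HOXB3 (limma adjusted p = 0.239). A fit without DEL was not run under the other scalings. Centred on the array medians, the differences were 1.23 for HOXC11, 1.16 for HOXC9, 1.10 for HOXB7 and 0.83 for HOXB3.

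HOXC10, HOXD1, HOXB2, HOXC12 and HOXB13 were lower in SUDHL-1 under all 3 scalings. HOXC10 averaged 4.81 in SUDHL-1 and 5.83 over the others (difference -1.02, SE 0.12, limma adjusted p = 3.27e-05). HOXD1 averaged 5.50 in SUDHL-1 and 6.39 over the others (difference -0.89, SE 0.09, limma adjusted p = 1.17e-05). HOXC12 differed by -0.83 and HOXB13 by -0.73, and HOXB13 was above background on 1 of 6 SUDHL-1 arrays and 2 of 6 arrays of the other lines. HOXB2 was below background on all 12 arrays, so its readings give no fold. When centred, HOXC10 stood at -0.56, HOXD1 at -0.43, HOXC12 at -0.37 and HOXB13 at -0.27. In 10 HOX genes all 6 SUDHL-1 arrays lay below all 6 arrays of the other lines, against 29.1% of all genes, and in 0 HOX genes above them, against 7.51%. HOXC10, lower in SUDHL-1, lies between HOXC9 and HOXC11, both higher there. HOXB6, HOXC13, HOXD3 and HOXD11, which were lower as deposited, turned to slightly positive differences (0.01 to 0.09) under both other scalings. Of 6 ParaHox genes in the same contrast, 1 was higher and 4 were lower (16.4% and 49.2% of all genes). The higher gene was CDX4, which was below background on all 12 arrays, so its readings give no fold. GSX1, among the lower genes, stood at -1.16.

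**Figure D3:**
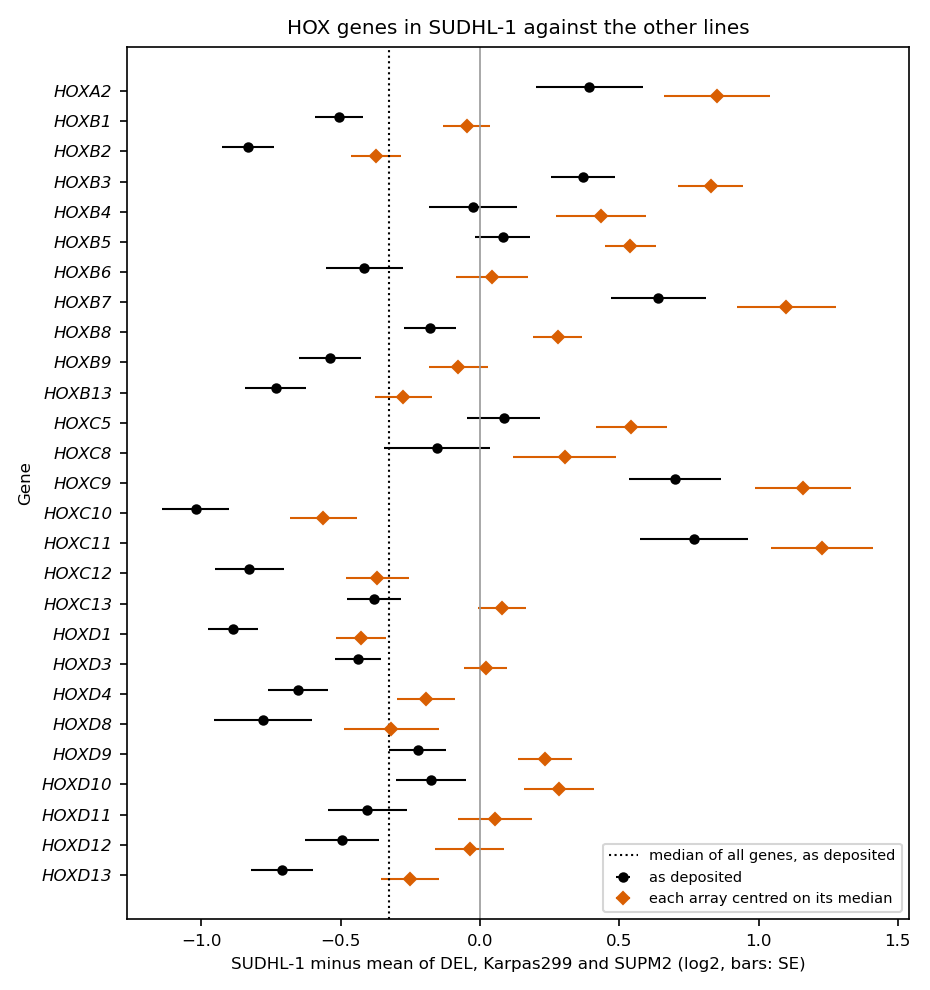
Log2 difference of SUDHL-1 minus the mean of DEL, Karpas299 and SUPM2 for 27 HOX genes (bars are SE), as deposited (black circles) and with each array centred on its median (orange diamonds). The dotted line is the median of all genes as deposited, -0.33. HOXC11, HOXC9, HOXB7 and HOXB3 lie right of 0 and HOXC10, HOXD1, HOXB2, HOXC12 and HOXB13 left of 0 in both.

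No HOX gene passed limma's adjusted threshold between SP and MP cells of SUDHL-1. The count was 0 of 27, with 0.0% of all genes called, and at an unadjusted p under 0.05 it was 1 of 27, against 3.13% of all genes. The gene was HOXB6, which is expressed in early myeloid and erythroid cells. It read 4.13, 3.84 and 4.51 in SP (mean 4.16 ± 0.34, SD, n = 3) and 3.44, 3.59 and 3.58 in MP (mean 3.53 ± 0.09, SD, n = 3). The 3 SP arrays lay above the 3 MP arrays, and HOXB6 was the 1 HOX gene of 27 whose values did not overlap, against 7.16% of all genes. The difference was 0.62 (SE 0.19, limma adjusted p = 1.00), and all its values lay below the background threshold. HOXA2 ran the other way at -0.42 (SE 0.20, limma adjusted p = 1.00), and at -0.24 without MP replicate 2. The median difference over the HOX genes was 0.02, with 16 of 27 higher in SP.

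Over the 4 lines, with 1 SP minus MP difference per line, limma called 0 of 27 HOX genes and 0.0% of all genes. At an unadjusted p under 0.05 it was 0 of 27, against 4.91% of all genes. The median difference was 0.10 over the HOX genes and 0.02 over all genes. The HOX median was 0.048 without SUPM2, 0.054 with dim genes left out and 0.067 after a second quantile normalization. In 9 of 27 HOX genes SP exceeded MP in 4 of 4 lines, against 8.09% of all genes and 11.6% of the olfactory receptor genes, and in 0 of 27 SP was lower in 4 of 4, against 5.65% of all genes. The 9 were HOXB1, HOXB6, HOXB8, HOXC11, HOXC13, HOXD3, HOXD4, HOXD10 and HOXD11. Only HOXB1 and HOXD4 were above background on all 12 arrays, and 4 (HOXB6, HOXD3, HOXD10 and HOXD11) were below it on all 12. HOXB8 passed on 8 arrays, HOXC13 on 3 and HOXC11 on SUDHL-1 arrays alone. In SUDHL-1 the differences of the 9 ran from 0.00092 (HOXD11) to 0.62 (HOXB6), with 0.023 for HOXB8. HOXD11 left the group when each array was centred on its median, which gave 8 of 27 against 7.35% of all genes. This count was made after the values were seen and has no test, and members of one cluster are not independent.

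The mean SP minus MP difference was 0.28 ± 0.25 for HOXB6 (SD, n = 4 lines, limma adjusted p = 0.918, higher in 4 of 4; 0.17 without SUDHL-1) and 0.22 ± 0.14 for HOXC13 (SD, n = 4 lines, limma adjusted p = 0.918, higher in 4 of 4). It was -0.37 ± 0.58 for HOXC9, with -1.0 in DEL, -0.72 in SUPM2, 0.22 in Karpas299 and -0.00061 in SUDHL-1. The HOXC9 SP readings of DEL (4.18, threshold 5.07) and SUPM2 (4.64, threshold 5.15) were below background, as were both Karpas299 readings. The HOXC9 sizes in these lines therefore give no fold. In single pairs of arrays, which have no replicate, a difference of at least 1 in size occurred in 1 HOX gene, HOXD8 in SUPM2 (1.02), where 6.59% of all genes differed that much. It occurred in 0 HOX genes in SUDHL-1, DEL and Karpas299, where the shares of all genes were 0.755%, 2.44% and 3.2%. HOXB4, the stem cell gene, was lower in SP than in MP in SUPM2 (-0.89) and DEL (-0.32), higher in Karpas299 (0.48) and at -0.03 in SUDHL-1. Whether the SP minus MP difference of SUDHL-1 departs from that of the other lines was tested as an interaction, and limma called 0 of 27 HOX genes (0.0% of all genes), with 0 of 27 at an unadjusted p under 0.05 against 3.59% of all genes.

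**Figure D4:**
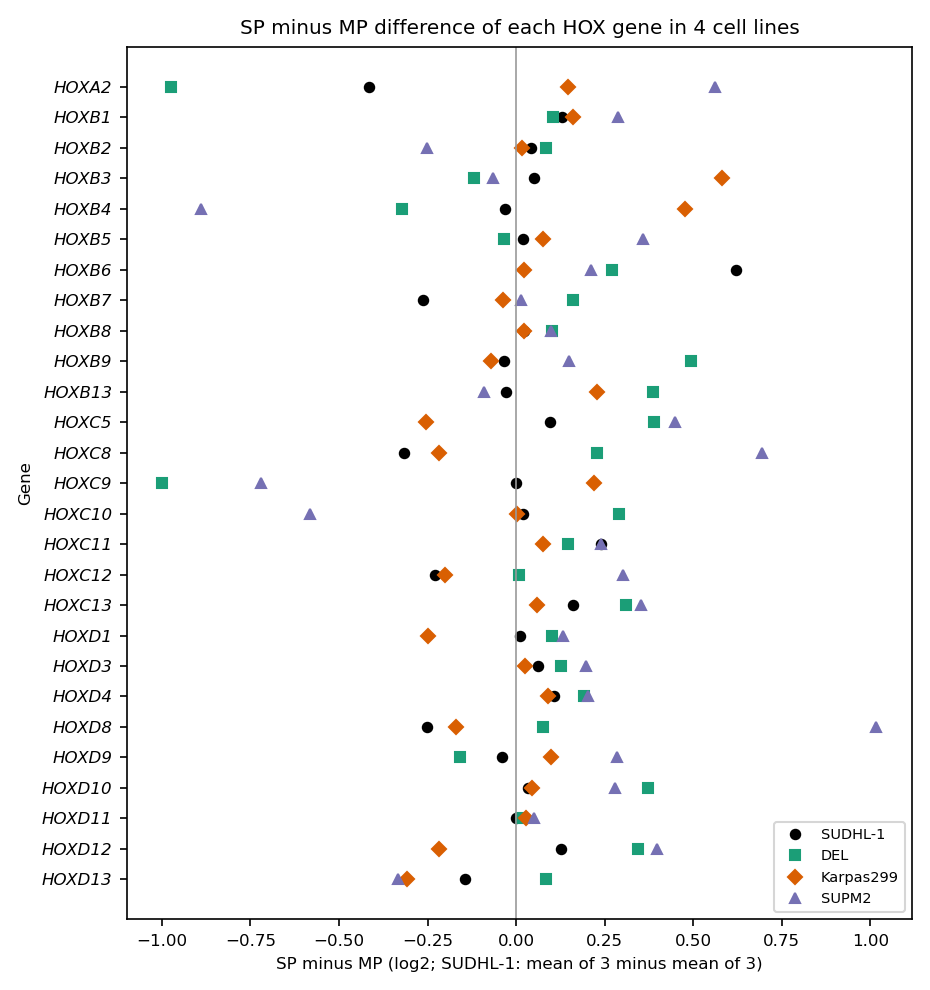
SP minus MP difference in log2 signal for 27 HOX genes in the 4 lines (SUDHL-1: mean of 3 arrays minus mean of 3; the other lines: 1 array minus 1). Most points lie within 0.5 of 0, HOXB6 is 1 of 9 genes positive in all lines, and HOXD8 in SUPM2 lies farthest right at 1.02. HOXB6 was below background on every array.

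Among HOX partners and regulators, genes that passed the test between lines included MEIS1, MEIS2, SUZ12 and PCGF2. Of 7 partners measured, in Karpas299 against SUPM2 limma called MEIS1 (adjusted p = 0.0312) and MEIS2 (adjusted p = 0.0127) lower and PBX3 (1.11, adjusted p = 0.0345) higher. In that contrast 6.81% of all genes were called. Both MEIS genes were below background on 2 of 2 Karpas299 arrays, so that their signal in Karpas299, bounded by the threshold of each array, was at least 1.84-fold lower for MEIS1 and at least 4.37-fold lower for MEIS2 than in SUPM2. MEIS2 read 6.25 to 7.41 in SUDHL-1, 5.99 and 6.40 in DEL SP and MP, 4.89 and 4.87 in Karpas299, and 7.40 and 6.97 in SUPM2, so that both Karpas299 arrays were the lowest of the 12. MEIS1 read 5.33 to 6.41 in SUDHL-1, 5.63 and 4.32 in DEL SP and MP, 4.13 and 3.78 in Karpas299, and 6.00 and 5.87 in SUPM2. In the other line contrasts 0 partners were called among DEL, Karpas299 and SUPM2. The shares of all genes there were 2.41% in DEL against Karpas299 and 4.72% in DEL against SUPM2. In SUDHL-1 against the others, 2 were higher, MEIS1 (0.70) and MEIS2 (0.64), and 1 was lower, beside 16.4% and 49.2% of all genes. Both sizes use Karpas299 readings below background, and that of MEIS1 also the DEL MP reading below background, so they give no fold. The SUDHL-1 means lay below those of SUPM2, at 5.66 against 5.94 for MEIS1 and 6.72 against 7.19 for MEIS2.

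The list of trithorax activators also holds genes outside the trithorax group, such as DOT1L, AFF1 and PSIP1. All 12 of its genes were measured and exceeded background on 12 arrays. In DEL against SUPM2, where 4.72% of all genes were called, limma called 1 of them higher, PSIP1 (1.35, adjusted p = 0.0409), which tethers KMT2A to chromatin. In Karpas299 against SUPM2 it called 2 higher, PSIP1 (1.75) and WDR5 (0.99), and 1 lower, the demethylase gene KDM6B (-1.03), beside 6.81% of all genes. In SUDHL-1 against the others as deposited, 2 genes of this list were higher and 6 lower, beside 16.4% and 49.2% of all genes. When centred, the shares of all genes were 34.6% and 19.6%, but this list was not counted at that scaling. Of 12 Polycomb genes measured, SUZ12, a subunit of the complex that methylates H3K27, was higher in DEL (1.46, limma adjusted p = 0.0281) and Karpas299 (1.73, limma adjusted p = 0.0157) than in SUPM2. SUZ12 read 9.43 and 9.27 in DEL SP and MP and 9.74 and 9.50 in Karpas299, against 7.77 and 8.01 in SUPM2. PCGF2, a subunit of the complex that marks H2A, was higher in DEL than in Karpas299 (1.99, limma adjusted p = 0.0115) and lower in Karpas299 than in SUPM2 (-1.02, limma adjusted p = 0.0372). DEL against Karpas299 called 2.41% of all genes. In SUDHL-1 against the others as deposited, 4 Polycomb genes were higher and 5 lower, beside 16.4% and 49.2% of all genes. The centred shares of all genes were 34.6% and 19.6%, but the Polycomb list was not counted at that scaling. The 4 higher Polycomb genes were EED (1.66), EZH1 (1.48), EZH2 (0.96) and SUZ12 (0.91), which encode subunits of the H3K27 complex. JARID2, also on the Polycomb list, differed by 0.006 (limma adjusted p = 0.987). SUZ12 averaged 9.87 in SUDHL-1, 9.62 in Karpas299, 9.35 in DEL and 7.89 in SUPM2. EZH2 averaged 9.63, 9.33, 8.85 and 7.81 in the same order.

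Of 10 flanking genes, SKAP1 and SKAP2 passed the test among DEL, Karpas299 and SUPM2. The share of all genes that passed was 2.41% in DEL against Karpas299, 4.72% in DEL against SUPM2 and 6.81% in Karpas299 against SUPM2. SKAP1, an adaptor gene of T cell signalling beside HOXB, read 6.39 and 7.30 in Karpas299 SP and MP, against 2.73 to 3.65 on the other 10 arrays. Those 10 arrays were below background, so the SKAP1 signal was at least 3.62-fold lower in DEL than in Karpas299 (limma adjusted p = 0.00955) and at least 3.18-fold higher in Karpas299 than in SUPM2 (limma adjusted p = 0.00854). SKAP2, its relative beside HOXA, ran opposite, with 1.83 in DEL against Karpas299 (limma adjusted p = 0.0135) and -2.15 in Karpas299 against SUPM2 (limma adjusted p = 0.00762). PRAC1, which lies inside the HOXB cluster next to HOXB13, was below background on all 12 arrays. Of the 2 antisense genes measured, HOXB-AS3 read 5.0 to 5.91 and HOXA-AS2 3.18 to 3.72. In SUDHL-1 against the others, 2 flanking genes were higher and 4 lower, and 0 antisense genes were higher and 1 lower, beside the 16.4% and 49.2% of all genes. In SP against MP, within SUDHL-1 and over the 4 lines, limma called 0 genes of the partner, trithorax, Polycomb, ParaHox, flanking and antisense lists. It called 0.0% of all genes in both.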

How the data were processed

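RNA from the sorted cells was amplified, labelled with biotin and hybridised to Affymetrix gene arrays, per the labels' protocols. The deposited values are log2 signals per probe set from RMA (background correction, quantile normalization and summary of probes), of which the submitters' processing notes give no version. The sources used here do not say if all 12 arrays went through RMA as 1 set. Arrays have no read depth, so their number limits the precision.

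Of 33297 probe sets, 19460 carried 1 symbol in the platform annotation, 1754 several and 12083 none, and the brightest probe set stood for each of 18417 genes. Differences were tested in R 4.3.3 by lmFit and eBayes of limma 3.58.1, two-sided, with Benjamini-Hochberg adjustment over all genes. The fits were SP minus MP in SUDHL-1 (6 arrays), 1 difference per line over 4 lines, 3 contrasts among DEL, Karpas299 and SUPM2 with population as a covariate, SUDHL-1 against the mean of the others with line and population, and their interaction. The scripts were tested on simulated data. Replicate numbers did not pair SUDHL-1 arrays, with correlations of deviations of -0.0037, -0.077 and -0.13 for equal numbers, so no block was used.

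The members, lists, thresholds and tests were chosen with earlier results of these data known. All measured HOX genes were described, in detail those above background in a line or called in a contrast, up to 20. Other genes came only from lists of partners (7 of 9 measured), trithorax activators (12 of 12), Polycomb genes (12 of 16), ParaHox genes (6 of 6), flanking genes (10 of 10), antisense genes (2 of 11) and cell markers. Alternatives changed the filter on dim genes (lowest 25% left out), scaling, probe set rule, variance model, arrays in the fit and background threshold, and left out each SUDHL-1 array or line. Names without a probe set of 1 symbol were not analysed here.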

Additional observations from a re-analysis of the deposited data

How the results depend on the processing

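The counts of HOX genes called in SP against MP, in the interaction and in DEL against SUPM2 stayed at 0 under every alternative run, and the count in SUDHL-1 against the others ranged over 14 to 19, of which 14 came with centring or a second quantile normalization. In DEL against Karpas299 the count was 0 after quantile normalization and 0 with a robust trended variance, and in Karpas299 against SUPM2 it was 1 when all 12 arrays shared the fit; the cause was not tested. That shared fit raised the genes called over the whole table to 958 in DEL against Karpas299 (444 over 6 arrays), 1536 in DEL against SUPM2 (869) and 1971 in Karpas299 against SUPM2 (1255). HOX genes above background numbered 7 in each of SUDHL-1, DEL and Karpas299 and 6 in SUPM2 at the 99th percentile, 17 in Karpas299 at the 90th percentile, 6, 5, 7 and 6 in SUDHL-1, DEL, Karpas299 and SUPM2 with the median of all genes as the threshold, and 0 in each against the brightest ParaHox gene, which sets different probe sets against each other and so bounds nothing. Those counts ask for every array of a line, and on single arrays HOXB4 (7 of 12), HOXB7 (4) and HOXB9 (2) did exceed the brightest ParaHox gene. Leaving out 1 SUDHL-1 array gave 13 to 15 HOX genes above background in SUDHL-1. In SUDHL-1 against the others, signs turned after quantile normalization for HOXB6 (0.043), HOXC13 (0.091), HOXD11 (0.064) and HOXD3 (0.012), and after centring for HOXB6 (0.044), HOXC13 (0.079), HOXD11 (0.055) and HOXD3 (0.021). With the replicate block in SUDHL-1, 0 HOX genes were called and the HOXB6 difference was 0.62, and leaving out single arrays gave 0.45 to 0.78.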

Other observations

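The probe set that carries both HOXC6 and HOXC4 symbols read 4.94, 5.07 and 4.90 in SUDHL-1 SP and 4.93, 5.36 and 5.07 in SUDHL-1 MP. Its SP and MP signals were 5.17 and 5.15 in DEL, 5.33 and 5.37 in Karpas299, and 5.59 and 5.71 in SUPM2, where both arrays were the highest of the 12. The signal cannot be assigned to one of these HOXC genes.

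MIR196A1, a microRNA gene inside the HOXB cluster, read 8.01 on the DEL SP array, against 4.49 to 5.58 on the other 11 arrays, with 5.38 on the DEL MP array. The value rests on 1 array and was picked after the values were seen. MIR10A read 2.17 to 3.35, MIR10B 1.67 to 2.30 and MIR196A2 2.58 to 3.81, all below background on 12 arrays.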
